A study of Mus musculus with 8 samples.

Results

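The clustered protocadherins are neuronal cell-surface genes that lie in 3 tandem arrays on mouse chromosome 18. Members were taken as every gene of the GENCODE vM1 annotation on chromosome 18 whose symbol begins with Pcdha, Pcdhb or Pcdhg, which gave 25 of 37273 annotated genes. The interval from the first to the last of them, chr18:37089939-38001527 in the mm9 build, measured 911589 bases. Huntingtin (HTT) ChIP-seq peaks with a summit in that interval numbered 108 of 174449 over 4 libraries of mouse cortex.

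The 4 libraries came from male mice aged 4 months at injection, or age-matched, on a C57BL/6J background, 1 library per group. Htt+/+ mice carry normal Htt alleles, and HttQ111/+ mice carry 1 allele in which a human HTT exon 1 with an expanded CAG tract replaces the mouse exon at the endogenous locus. In each genotype 1 library was untreated and 1 came from mice given 500 µg of an antisense oligonucleotide (ASO) against Htt by injection into 1 cerebral ventricle, with the cortex of the injected side taken 4 weeks later. The labels give 3 mice per chromatin preparation and the methods text a smaller pool, so the number of animals behind a library is uncertain. Bulk cortex was used, so the cell types that gave a peak cannot be told apart. Peaks numbered 44664 in untreated Htt+/+, 41323 in ASO-treated Htt+/+, 47957 in untreated HttQ111/+ and 40505 in ASO-treated HttQ111/+ libraries. Only 2 to 4 reads lay at the summit of 79.4% to 87.3% of a library's peaks, so that single peaks are weakly supported. The methods text describes 1 merged input control for the 4 libraries, but whether the deposited lists were called against it is not known. No group had a replicate library. Intervals below are 95% intervals of counting error only.

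In the alpha and gamma arrays, each of many large variable exons carries its own promoter and is spliced to 3 constant exons shared by the whole array. The variable exon encodes the signal peptide, the extracellular cadherin repeats and the transmembrane segment of 1 isoform, and the constant exons encode a common cytoplasmic tail. The beta genes are single large exons without a constant part. A neuron switches on a few of these promoters, with CTCF and cohesin joining promoter to enhancer, and the resulting mixture of surface proteins lets its branches recognise one another.

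The vM1 annotation holds the alpha isoforms mostly as transcripts of 1 gene, Pcdha11 (257373 bases, ENSMUSG00000007440.7), and the gamma isoforms as transcripts of Pcdhgc5 (167539 bases, ENSMUSG00000023036.7). The beta genes stand alone, Pcdhb1 to Pcdhb22, with Pcdhb20 annotated as a pseudogene. Variable exons were therefore read as forward-strand open frames of at least 2 kb. There were 61, of which 58 were named by order along the chromosome from the RefSeq symbols of a later build, namely 14 alpha, 22 beta and 22 gamma exons. In the beta array the order gave the vM1 names for 22 of 22 exons. Of the alpha exons 10 and of the gamma exons 9 overlap a coding block annotated in vM1. The names of all 14 alpha and 22 gamma exons were given by order and were not checked against vM1. The other 3 open frames overlapped no beta gene, lay outside the alpha and gamma arrays and were not counted as variable exons.

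Peaks were concentrated on the variable exons. Of the 108 peaks, 72 (66.7%, Wilson interval 57.3% to 74.8%) had their summit in a variable exon, although these exons made up 15.5% of the interval. Variable exons are rich in GC (52.2%, against 39.4% for the remainder of the interval), and sequence of the same GC elsewhere in the genome would have placed 50.2% of the peaks there. By library it was 20 of 31 peaks in untreated Htt+/+, 18 of 27 in ASO-treated Htt+/+, 24 of 35 in untreated HttQ111/+ and 10 of 15 in ASO-treated HttQ111/+ cortex. With at least 5 reads at the summit, 33 of 36 peaks lay in variable exons.

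**Figure D1:**
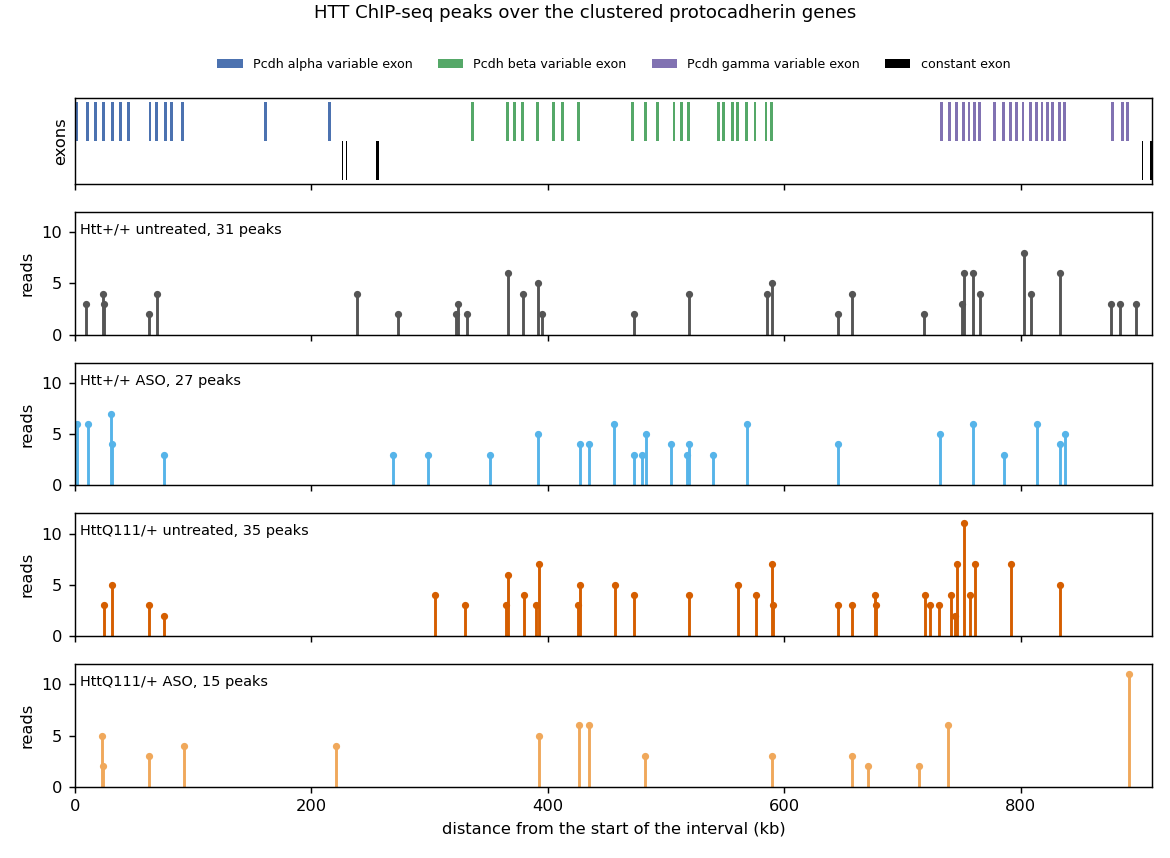
Peak summits of the 4 HTT ChIP-seq libraries along the interval (x axis, kb from its start; y axis, recovered reads at the summit), under the variable exons (coloured by array) and constant exons (black, below the line). Summits gather under the exon arrays, and the 15 peaks of ASO-treated HttQ111/+ are the fewest.

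In the whole interval, peak density was 3.40 summits per 100 kb in untreated Htt+/+, 2.96 in ASO-treated Htt+/+, 3.84 in untreated HttQ111/+ and 1.65 in ASO-treated HttQ111/+ libraries. Sequence of the same GC in the rest of the genome held 1.80, 1.70, 2.09 and 1.48 summits per 100 kb in the same order. Observed over expected peaks were 1.89 (exact Poisson interval 1.29 to 2.69) in untreated Htt+/+, 1.75 (1.15 to 2.54) in ASO-treated Htt+/+ and 1.84 (1.28 to 2.55) in untreated HttQ111/+ cortex. In ASO-treated HttQ111/+ the ratio was 1.12 (0.624 to 1.84), which could not be told from the level of the genome at this depth. Over the 4 libraries the ratio was 1.68 (1.38 to 2.03). The protocadherin exons also carry many CpG dinucleotides, and the ratio over the interval was 1.16 (0.954 to 1.40) beside windows with the same number of CpG, which does not clear counting error.

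On the variable exons alone, density was 14.2, 12.7, 17.0 and 7.08 summits per 100 kb in the order of libraries above. In the same order, the exons were at 2.36, 2.26, 2.20 and 2.02 times the same-GC level. The interval in ASO-treated HttQ111/+ was 0.969 to 3.72. Beside windows with the same CpG number they were at 1.83, 1.49, 1.61 and 2.05. Over the 4 libraries the exons were at 2.23 times the level of sequence with the same GC (1.74 to 2.81) and 1.68 times that of windows with the same CpG number (1.32 to 2.12). Sequence outside the variable exons was at 1.12 times the same-GC level (0.786 to 1.55) and at 0.719 times the same-CpG level (0.503 to 0.995). Large coding blocks of other genes were set beside them. For the 54 blocks elsewhere within the same range of length and GC, the ratio was 1.50 (1.08 to 2.04) beside sequence of the same GC and 1.89 (1.36 to 2.56) beside windows of the same CpG number, and these intervals overlap those of the variable exons. By library, these blocks ranged from 0.957 (0.351 to 2.08) in ASO-treated Htt+/+ to 2.17 (1.04 to 3.99) in ASO-treated HttQ111/+ beside the same GC. In ASO-treated HttQ111/+ they were above the variable exons (2.02), and in each of the other libraries below them. The intervals of the blocks and the exons overlapped in every library. All 655 coding blocks of at least 2 kb elsewhere were at 1.14 (1.05 to 1.24) beside the same GC, below the interval of the variable exons, and at 1.43 (1.31 to 1.55) beside the same CpG number, which overlaps it.

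**Figure D2:**
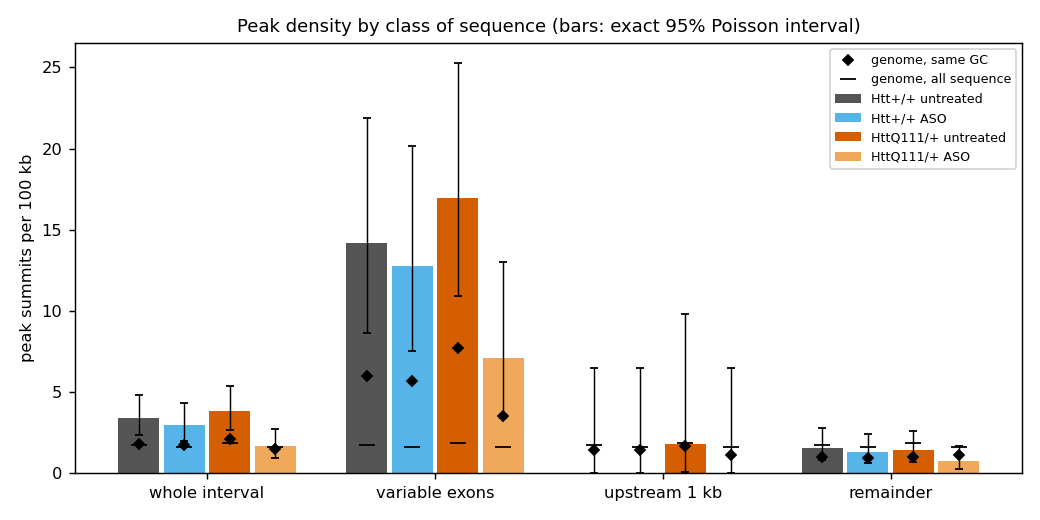
Peak summits per 100 kb (y axis) in the whole interval, the variable exons, the 1 kb upstream of them and the remainder, 1 bar per library with its exact 95% Poisson interval. Diamonds give the level of genome sequence with the same GC and dashes that of all sequence. The variable exons hold 14.2, 12.7, 17.0 and 7.08 summits per 100 kb from left to right.

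The 1 kb before a variable exon, where the promoters lie, was counted for 57 exons, since that of Pcdha1 lies outside the interval. These 57000 bases held 1 summit over the 4 libraries, in untreated HttQ111/+ before Pcdhb2. This was 0.312 times the expectation at the same GC (0.00789 to 1.74) and 0.137 times that at the same CpG number (0.00348 to 0.765), so only the second cleared counting error. By overlap of 1 base or more, 9 peaks reached into these stretches. The constant exons of both arrays (4979 bases in all) held 0 summits in any library. With 0.665 expected over the 4 libraries, a lower level than that of the genome was not detectable there.

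Peaks were then counted by array. The alpha array held 6, 5, 4 and 5 peaks in untreated Htt+/+, ASO-treated Htt+/+, untreated HttQ111/+ and ASO-treated HttQ111/+. All but 2 of these 20 peaks had their summit in a variable exon, and the remaining 223107 bases held 0.246 times the same-GC expectation (0.0298 to 0.889). The beta array held 8, 13, 14 and 5 peaks, 30 of 40 in variable exons, at 2.69 times the same-GC level on the exons (1.82 to 3.84) and 2.71 times the same-CpG level (1.83 to 3.87). The gamma array held 10, 6, 8 and 2 peaks, 24 of 26 in variable exons, at 1.92 times the same-GC level on the exons (1.23 to 2.85). Beside windows of the same CpG number, the alpha exons were at 1.25 (0.739 to 1.97) and the gamma exons at 1.39 (0.888 to 2.06), so only the beta exons cleared counting error on that scale. Stretches between the arrays held 8 peaks between alpha and beta and 14 between beta and gamma. At 39.9% and 40.9% GC these stretches were close to the alpha and beta arrays (40.4% each) and below the gamma array (45.1%). Their 22 peaks were 2.11 times the same-GC expectation (1.32 to 3.19) and 1.55 times the same-CpG one (0.974 to 2.35).

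Each exon was cut into 5 equal segments from its 5′ to its 3′ end, which held 15, 4, 4, 33 and 16 summits over the 4 libraries. The fourth segment, the richest in GC (59.2%) and in CpG (5.27 per 100 bases), was at 2.93 times the same-GC level (2.02 to 4.11) and 2.48 times the same-CpG level (1.71 to 3.48). The second and the third segments, at 47.3% and 49.2% GC, were at 1.07 (0.292 to 2.75) and 0.868 (0.236 to 2.22) times the same-GC level. The first was at 2.45 (1.37 to 4.04) and the fifth at 2.44 (1.39 to 3.96), and beside windows of the same CpG number they were at 1.65 (0.924 to 2.72) and 2.57 (1.47 to 4.18). Over all exons the fourth segment thus held the most summits but, with composition matched, its ratio overlapped those of the first and the fifth. In the beta exons 19 of 30 summits fell in the fourth segment, 4.11 times the same-GC level (2.48 to 6.42) and 4.26 times the same-CpG level (2.57 to 6.66). In the alpha exons the first segment held the most summits, 8 of 18, at 3.81 times the same-GC level (1.64 to 7.50) and 2.48 times the same-CpG level (1.07 to 4.89), and the fourth held 4. Repeated sequence differed between these places. Repeats were counted over chromosomes 1 to 19, X and Y. Of the 100-base stretches starting in the fourth beta segment, 0.0190% occurred again, against 12.4% in the first alpha segment.

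**Figure D3:**
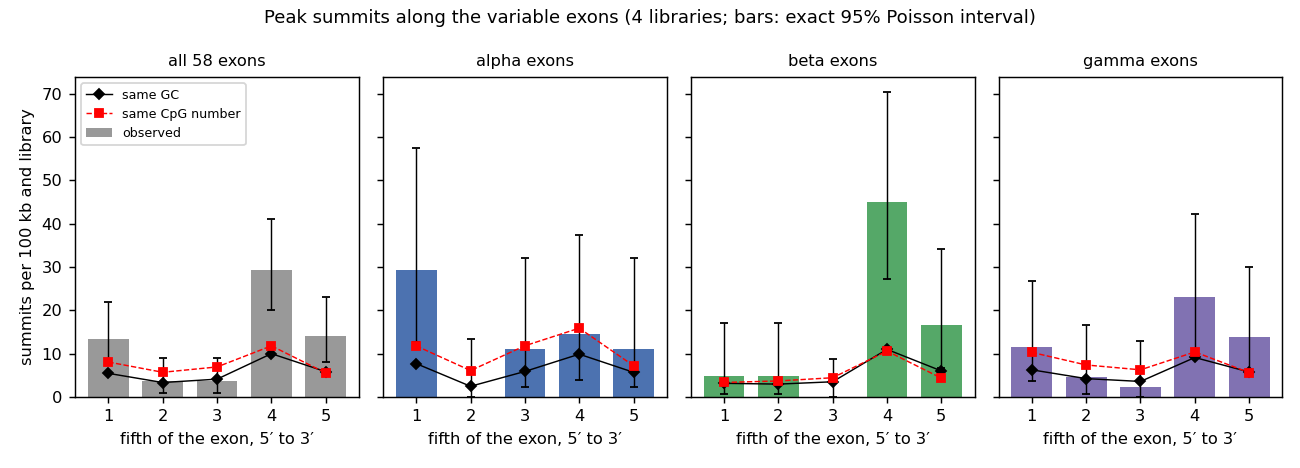
Summits per 100 kb and library (y axis) in 5 equal segments of the variable exons from 5′ to 3′ (x axis), for all 58 exons and by array, with exact 95% Poisson intervals. Black diamonds and red squares give genome sequence of the same GC and of the same CpG number. The fourth segment of the beta exons, with 19 summits, stands highest above both.

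The members were then counted by exon. A peak overlapped 18 of 58 variable exons in untreated Htt+/+ (31.0%, Wilson interval 20.6% to 43.8%), 16 in ASO-treated Htt+/+ (27.6%, 17.8% to 40.2%), 20 in untreated HttQ111/+ (34.5%, 23.6% to 47.3%) and 9 in ASO-treated HttQ111/+ (15.5%, 8.38% to 26.9%). Of the 54 coding blocks of like length and GC elsewhere, 22.2%, 9.26%, 25.9% and 18.5% had a peak in the same libraries. Only in ASO-treated Htt+/+ did that background fall outside the counting interval of the protocadherin share, and the background itself rests on 54 blocks. Of the longest coding block of every protein-coding gene, most of which are far shorter, 7.17%, 7.22%, 9.59% and 3.48% had a peak.

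A peak in at least 1 library overlapped 36 of the 58 exons (62.1%, Wilson interval 49.2% to 73.4%), beside 48.1% (35.4% to 61.1%) of the 54 coding blocks of like length and GC and 19% of the longest coding blocks of all protein-coding genes. Peaks in at least 2 libraries overlapped 17 exons (29.3%, 19.2% to 42.0%), beside 24.1% of the 54 blocks and 5.97% of the longest coding blocks. The intervals of the exons and the 54 blocks overlap at 1 library, and at 2 libraries the share of the blocks lies inside that of the exons. The 36 exons were 8 of 14 alpha, 12 of 22 beta and 16 of 22 gamma exons. In 19 exons the peak came from 1 library, in 8 from 2, in 8 from 3 and in 1, Pcdhb5, from all 4. Exons without a peak in any library were Pcdha3, Pcdha6, Pcdha7, Pcdha11, Pcdhac1 and Pcdhac2 in the alpha array, Pcdhb1, Pcdhb3, Pcdhb6, Pcdhb7, Pcdhb11, Pcdhb12, Pcdhb13, Pcdhb15, Pcdhb16 and Pcdhb17 in the beta array, and Pcdhga6, Pcdhga8, Pcdhga10, Pcdhga11, Pcdhgb7 and Pcdhgc4 in the gamma array. They include the neighbouring exons Pcdhb11 to Pcdhb13 and Pcdhb15 to Pcdhb17. The C-type exons, which are closest to the constant exons and are expressed in most neurons rather than chosen at random, had a peak in 2 of 5 cases, each from 1 library. These were Pcdhgc3 in untreated Htt+/+ (3 reads) and Pcdhgc5 in ASO-treated HttQ111/+ (11 reads). The fold enrichment of the Pcdhgc5 peak was 3.37, below the library's median of 4.41 although its reads were the most of any peak of that library in the interval.

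**Figure D4:**
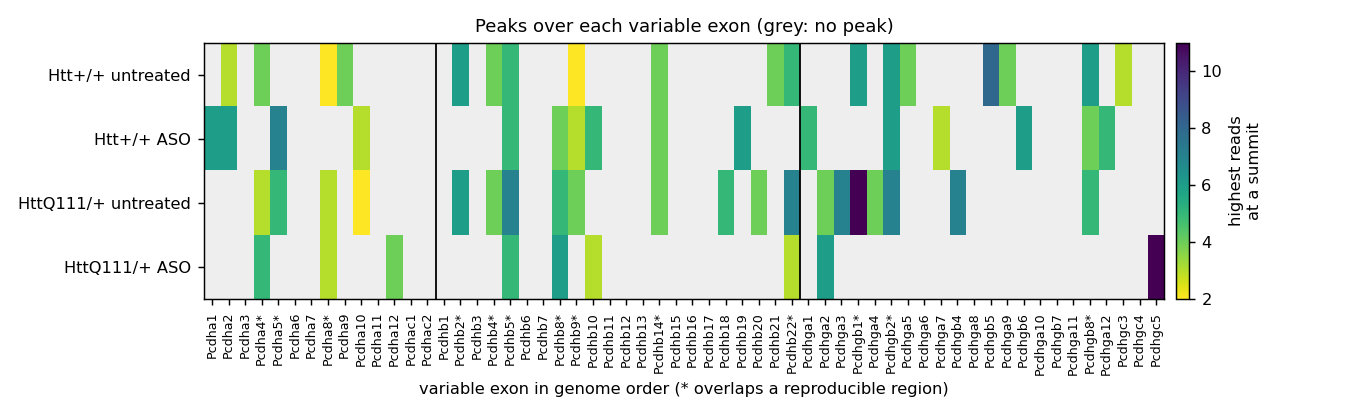
Highest number of reads at the summit of a peak over each of the 58 variable exons (x axis, genome order, lines between arrays) in each library (rows), with grey for no peak and a star for exons that overlap a reproducible region. Pcdhb5 alone has a peak in all 4 libraries, and 22 exons have none in any.

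Reproducible regions were merged peaks with q below 0.01 from at least 2 of the 4 libraries. The interval held 17 of 10493, against 4.80 expected from sequence of the same GC, a ratio of 3.54 (2.06 to 5.67). Regions were not set beside windows of the same CpG number. For single peaks of the interval that changed the ratio from 1.68 to 1.16 (0.954 to 1.40). Peaks of 2 libraries made 12 of them, peaks of 3 libraries 4, and peaks of all 4 libraries 1. Leaving out untreated HttQ111/+ left 7 regions, leaving out untreated Htt+/+ left 10 and leaving out ASO-treated Htt+/+ left 11. The regions were 241 to 814 bases wide and had 56.1% to 63.2% GC. By array, 3 regions lay in alpha, 9 in beta, 3 in gamma and 2 between beta and gamma. They overlapped 13 of 58 variable exons (22.4%, 13.6% to 34.7%), against 14.8% of the 54 coding blocks of like length and GC, which lies inside that interval, and 5% of the longest coding blocks of all protein-coding genes. These were Pcdha4, Pcdha5, Pcdha8, Pcdhb2, Pcdhb4, Pcdhb5, Pcdhb8, Pcdhb9, Pcdhb14, Pcdhb22, Pcdhgb1, Pcdhgb2 and Pcdhgb8. The midpoint of the region lay past 60% of the exon's length in 11 of the 13, and near its 5′ end in Pcdha8 and Pcdhgb2. In the gamma array the 3 exons were all of the B subfamily, of 7 gamma B exons and 12 gamma A exons. That split was seen after the values were known.

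Pcdhb5, an adhesion molecule of the beta array, had the most recurrent region, chr18:37481886-37482446. Its highest fold enrichment (reads at the summit) was 4.29 (5 reads) in untreated Htt+/+, 3.17 (5 reads) in ASO-treated Htt+/+, 10.7 (7 reads) in untreated HttQ111/+ and 5.89 (5 reads) in ASO-treated HttQ111/+. The untreated HttQ111/+ value was the highest and the other 3 libraries had the same number of reads. Its region had 61.5% GC and no repeated 100-base stretch.

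Pcdhgb2 had 6 reads in untreated Htt+/+ (fold enrichment 6.79), 6 in ASO-treated Htt+/+ (6.28) and 7 in untreated HttQ111/+ (3.01), with no peak in ASO-treated HttQ111/+. The untreated HttQ111/+ peak lay further 3′ in the exon and did not overlap the other 2. Pcdhb8 had no peak in untreated Htt+/+, 4 reads in ASO-treated Htt+/+ (3.98), 5 in untreated HttQ111/+ (5.29) and 6 in ASO-treated HttQ111/+ (4.09).

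Pcdhb22 had 5 reads in untreated Htt+/+ (8.57), 7 in untreated HttQ111/+ (12.1, the highest fold enrichment of any peak in the interval) and 3 in ASO-treated HttQ111/+ (3.0), and no peak in ASO-treated Htt+/+. The 7-read peak lay beside the reproducible region, which in that library held a second peak of 3 reads (5.32). Pcdhgb8 had 6 reads in untreated Htt+/+ (3.40), 4 in ASO-treated Htt+/+ (2.58) and 5 in untreated HttQ111/+ (4.38). Neither exon was higher with ASO than without it in either genotype.

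Pcdha4 had 4 reads in untreated Htt+/+ (7.58), 3 in untreated HttQ111/+ (6.19) and 5 in ASO-treated HttQ111/+ (7.02). The ASO-treated HttQ111/+ library held 2 peaks in this exon, and only its weaker one, with 2 reads, overlapped the reproducible region. Pcdhb14 had 4 reads in untreated Htt+/+ (3.48), ASO-treated Htt+/+ (4.62) and untreated HttQ111/+ (3.55) alike, within its region. Pcdhb9 had 2 reads in untreated Htt+/+ (4.06), 3 in ASO-treated Htt+/+ (4.96) and 4 in untreated HttQ111/+ (7.72), and the 2-read peak did not overlap the other 2. Neither of these beta genes had a peak in ASO-treated HttQ111/+.

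Among the other 5 exons, Pcdhgb1 had the most reads, 11 in untreated HttQ111/+ (9.33) and 6 in untreated Htt+/+ (5.09), and no peak with ASO in either genotype. Pcdhb2 (6 and 6 reads) and Pcdhb4 (4 and 4 reads) likewise had peaks in both untreated libraries and in neither ASO library. Pcdha5 had 4 reads in ASO-treated Htt+/+ and 5 in untreated HttQ111/+ within its region, and a further ASO-treated Htt+/+ peak of 7 reads (10.9) near the 5′ end of the exon. Pcdha8 had 2 or 3 reads in every library but ASO-treated Htt+/+. Of the 100-base stretches in a region, 26.1% in Pcdhgb1, 18.5% in Pcdhgb8, 18.4% in Pcdha5 and 16.2% in Pcdha4 occurred again in the genome. How reads with several matching places were treated is not given in the sources used here.

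Outside the named exons, 4 reproducible regions remained. At chr18:37524771-37525167, between Pcdhb8 and Pcdhb9, ASO-treated Htt+/+ had 4 reads and ASO-treated HttQ111/+ 6, with no peak in either untreated library. However, all 100-base stretches of this region (100%) occurred again in the genome. At chr18:37546210-37546496, also between Pcdhb8 and Pcdhb9, ASO-treated Htt+/+ had 6 reads and untreated HttQ111/+ 5. The other 2, at chr18:37735551-37735865 and chr18:37747286-37747620, lay between Pcdhb22 and Pcdhga1. The first had 4 reads in ASO-treated Htt+/+ and 3 in untreated HttQ111/+, and the second had 3 or 4 reads in every library but ASO-treated Htt+/+, with 33.7% of its 100-base stretches repeated. The interval also holds 4 other protein-coding genes. Slc25a2, a mitochondrial ornithine transporter, 3222401L13Rik and Gm10545 had no peak. Taf7, a subunit of the general transcription factor TFIID, had 1 peak of 2 reads in ASO-treated HttQ111/+.

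Peaks recurred between libraries more often here than elsewhere. Over the 12 directed pairs of libraries, a median of 22.9% of the peaks in the interval overlapped a peak of the other library (11.1% to 33.3%). For all peaks the median was 7.06% and for peaks at the same GC elsewhere 12.5%. The interval's share was above the same-GC share in 12 of 12 pairs and above the share at the same CpG number (median 17.0%) in 10 of 12. Peaks of the interval more often had at least 5 reads (22.6%, 40.7%, 34.3% and 40% in the order of libraries above) than all peaks of the library (15.2%, 20.4%, 18.9% and 12.7%). Among peaks with at least 5 reads, the median recurrence was 17.4% in the interval, 13.8% for all peaks and 9.92% at the same GC. The gap to all peaks was thus smaller there. The pairs share libraries, so they are not independent. Shared peaks lay mostly on the exons. In untreated Htt+/+ 10 of 20 exon peaks and 1 of 11 other peaks overlapped a peak of any other library. The counts were 8 of 18 and 3 of 9 in ASO-treated Htt+/+, 14 of 24 and 3 of 11 in untreated HttQ111/+, and 5 of 10 and 2 of 5 in ASO-treated HttQ111/+.

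**Figure D5:**
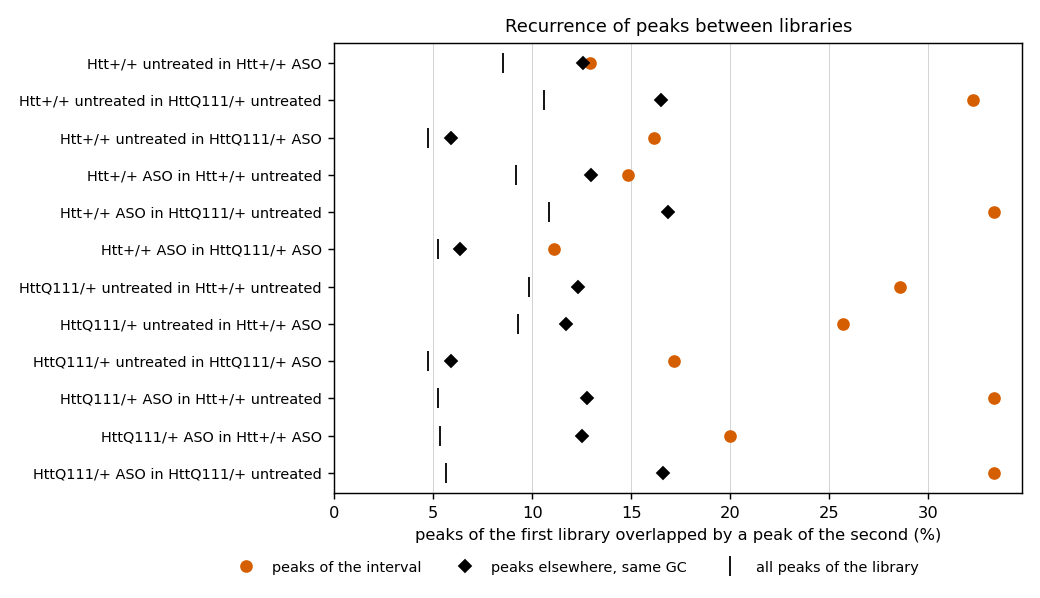
Share of peaks of the first library overlapped by 1 base or more by a peak of the second (x axis, percent) for the 12 directed pairs (y axis). Circles are peaks of the interval (11.1% to 33.3%), diamonds peaks elsewhere at the same GC and ticks all peaks. Circles lie right of the diamond in 12 of 12 pairs.

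The ASO comparison asked whether lowering HTT changed HTT peaks at these genes. In Htt+/+ cortex 27 peaks with ASO stood against 31 without, a ratio of 0.871 (counting interval 0.523 to 1.45). In HttQ111/+ cortex 15 stood against 35, a ratio of 0.429 (0.236 to 0.778). The mean log2 ratio was -0.71, with p = 0.25 by an exact one-sided permutation test within genotype, which is the lowest p that 4 relabellings can give. The libraries themselves held fewer peaks with ASO (ratios 0.923 and 0.845 on chromosomes 1 to 19, X and Y), and sequence of the same GC gave expected ratios of 0.945 in Htt+/+ and 0.706 in HttQ111/+, which lie inside both counting intervals. On the variable exons alone the ratio was 0.900 (0.481 to 1.68) in Htt+/+ and 0.417 (0.202 to 0.858) in HttQ111/+. Sequence of the same GC as the exons also gave fewer expected peaks with ASO. These were 7.97 against 8.47 in Htt+/+ and 4.95 against 10.9 in HttQ111/+. In HttQ111/+ the exons were at 2.02 times that level with ASO (0.969 to 3.72) and 2.20 without it (1.41 to 3.28). These intervals overlap, so a loss particular to the exons was not shown. For peaks with at least 5 reads the 2 genotypes went in opposite directions, with 11 peaks against 7 in Htt+/+ and 6 against 12 in HttQ111/+. As a share of all peaks with at least 5 reads, the interval held 0.104% in untreated Htt+/+, 0.133% in ASO-treated Htt+/+, 0.134% in untreated HttQ111/+ and 0.118% in ASO-treated HttQ111/+ libraries, and the mean log2 ratio turned to 0.08. Lower HTT and a poorer library cannot be told apart with 1 library per group.

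By region, 13 of 17 reproducible regions (76.5%, 52.7% to 90.4%) were lower with ASO when the log2 ratio of fold enrichments was averaged over the genotypes, beside 68.4% of all reproducible regions, which lies inside that interval. In Htt+/+ alone 10 of 17 were lower, beside 51.6% of all regions with a peak in either Htt+/+ library. In HttQ111/+ alone 15 of 16 were lower (93.8%, 71.7% to 98.9%), beside 73.9% of all such regions, which also lies inside the interval. Regions entered through called peaks, and a library without a peak took the lowest deposited value. The direction therefore follows in part from which library had a peak. Untreated HttQ111/+ had one in 15 of 17 regions of the interval (88.2%), beside 69.1% of all regions. Of the 16 regions, 9 had a peak in untreated HttQ111/+ but not with ASO, 1 the reverse and 6 both. Over all such regions 59.2% had a peak in the untreated library alone, 20.2% with ASO alone and 20.6% in both, so the share lost with ASO (56.2%) was near that of all regions. In Htt+/+ the 17 regions split into 7 with a peak in the untreated library alone, 6 with ASO alone and 4 in both, beside 33.6%, 33.8% and 32.6% of all regions.

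For genotype, HttQ111/+ had 35 peaks against 31 in untreated cortex, a ratio of 1.13 (0.699 to 1.82), and 15 against 27 with ASO, a ratio of 0.556 (0.299 to 1.03). Both intervals include 1. The mean log2 ratio was -0.34 (two-sided exact permutation p = 1.0, where 0.5 is the lowest that can be reached). As a share of each library's peaks on chromosomes 1 to 19, X and Y (44125, 40743, 47473 and 40112 in the order used above), the interval held 0.0703% of peaks in untreated Htt+/+ (Wilson interval 0.0495% to 0.0997%), 0.0663% in ASO-treated Htt+/+ (0.0456% to 0.0964%), 0.0737% in untreated HttQ111/+ (0.0530% to 0.103%) and 0.0374% in ASO-treated HttQ111/+ (0.0227% to 0.0617%).

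Other lists were set beside these members by counts, from 1 kb upstream of a gene to its end, where 21.9% of 22367 protein-coding genes held a reproducible region. Longer genes offer more sequence in which a region can lie. Nonclustered protocadherins, related adhesion molecules outside the arrays, held one in 9 of 12 genes (median length 74.8 kb, against 15.4 kb for all). They included the compact Pcdh8 (4.53 kb), with 3 regions, and Pcdh20 (6.65 kb), with 1. Proteins that organise or silence the arrays held one in 6 of 15 genes, namely Dnmt1, Rest, Smchd1, Stag1, Stag2 and Wiz, and the gene of the boundary factor CTCF had none, with 2 peaks in untreated HttQ111/+. Of the kinases and partners that act with protocadherins, Fyn and Ptk2 held one and Ptk2b and Ret did not. The Ugt1a genes, which also join variable first exons to shared exons, held one in 9 of 9 genes, but they overlap one another. Hox genes of the 4 arrays held one in 16 of 40 genes and olfactory receptor genes in 23 of 1113 (2.07%). Median gene lengths were 46.3 kb for the organisers and silencers, 162 kb for the kinases and partners and 117 kb for Ugt1a. For Hox and olfactory receptor genes they were 4.08 and 0.96 kb.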

How the data were processed

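HTT ChIP-seq peak lists of 4 cortex libraries were used, and the 4 input samples were not analysed here on their own. The methods text describes merging them into 1 control. Per the labels, the authors used bcl2fastq 2.17, HISAT2 and MACS2 with mm9, while the methods text names a later build and describes reducing libraries to a common size. No peak passed a chromosome end of NCBIM37 (0 cases), so the files were read as mm9. The deposited columns are a fold enrichment (a ratio) at the summit, the −log10 p-value, the −log10 q-value and an integer score, which is 10 times the −log10 p-value, truncated. Summit positions were used as deposited.

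Reads at the summit were recovered from the fold enrichment and p-value with 1 scaling factor per library (matched within 0.01 of the −log10 p-value for 99.98% of peaks or more). The recovery and the GC standardisation were tested on simulated data. The factor was 3.23 in untreated Htt+/+, 2.97 in ASO-treated Htt+/+, 3.30 in untreated HttQ111/+ and 2.67 in ASO-treated HttQ111/+. What it says of depth depends on the control used, which is not known. Depth is known only through these reads and factors. GC was counted in 500-base windows centred on each base of chromosomes 1 to 19, X and Y in bins of 1 percentage point, and expected peaks came from all windows outside the interval. A summit decided the class of a peak. Variable exons were open frames of at least 2 kb, a wider rule than annotated coding blocks. Their alpha and gamma names come from RefSeq symbol order in GRCm38.p6, whose numbers of symbols equal the open frames. Region fold enrichments are the highest of a library's deposited peaks there, with the lowest deposited value (1.40) where there was none. Intervals were Wilson (ratios from the share of the first count in the sum) or exact Poisson.

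Named genes were all members whose variable exon overlaps a reproducible region, with values for the 8 with most libraries and then most summed reads, members without peaks, the constant exons and other protein-coding genes in the interval. The other lists were given by counts. The members and lists were chosen with earlier results of these data known. No p-value was computed across peaks. Scripts used matplotlib 3.10.9, scipy 1.17.1, numba 0.67.0, pandas 2.3.3 and numpy 2.4.6 under Python 3.11.15.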

Additional observations from a re-analysis of the deposited data

Results flagged for a closer look

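The HttQ111/+ to Htt+/+ ratio of peaks in the interval went in opposite directions in the 2 treatments, 1.13 in untreated and 0.556 in ASO-treated cortex. The difference between these ratios was not tested, since each group held 1 library, and both counting intervals include 1.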

How the results depend on the processing

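No paired analysis was possible by replicate number because each group held 1 library, and libraries were paired through genotype or treatment in the permutation tests. Chosen after seeing the data were CpG number, annotated exons only, leaving out single libraries for density, and the minimum of 5 reads for shares of a library, for the share of peaks in variable exons and for reproducible regions. For peaks of at least 5 reads, the Htt+/+ ASO ratio was 1.57, observed over same-GC peaks was 2.31 in ASO-treated HttQ111/+, 2.30 over the 4 libraries and 2.81 on the variable exons, 91.7% of peaks lay in variable exons, 7, 10, 11 and 5 exons had a peak (libraries in the order of the report) and 7 reproducible regions were left. As a share of each library's peaks with at least 5 reads, the mean log2 ratio turned to 0.080 for ASO and to 0.095 for genotype, and the HttQ111/+ ASO ratio was 0.880. With CpG number in place of GC, the ratio was 1.31 (0.890 to 1.86) in untreated Htt+/+, 1.12 in ASO-treated Htt+/+, 1.22 in untreated HttQ111/+, 0.910 (0.509 to 1.50) in ASO-treated HttQ111/+, where it fell below 1, 1.16 over the 4 libraries, 1.68 on the variable exons and 0.828 in the remainder. Requiring 3 libraries left 5 reproducible regions, and leaving out each library in turn left 7 to 16. The share of regions lower with ASO was 100% for the 1 region with a peak in all 4 libraries and 93.8% in HttQ111/+ alone. A reciprocal overlap of 50% lowered the median recurrence to 13.8%, beside 4.42% for all peaks and 8.15% at the same GC. Windows of 250 or 1000 bases, q below 0.01, the same chromosome as background, annotated exons only (2.13 on the variable exons) and leaving out single libraries (2.18 to 2.27 there) kept the direction of the density results. The cause of these shifts was not tested.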
